A study of Mus musculus with 8 samples.

Results

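The 10 genes of the microvillar cytoskeleton of the intestinal brush border described here are Ezr, Slc9a3r1, Vil1, Myo1a, Cdhr2, Cdhr5, Espn, Eps8, Pls1 and Myo7b. Members were the rows of the joint count table whose gene name matched this list, 10 of 55421 genes, each found once. The tissue was small intestine of Mus musculus, labelled WT (the design text calls the mice wild), and expression was measured by bulk RNA sequencing of total RNA in 8 libraries. Hypoxia+Nitrate, with 4 libraries, came from mice held at 7% oxygen for 7 days whose treatment added 4 mM nitrate, an anion of leafy vegetables from which nitric oxide can be formed in the body. Hypoxia, the group it was set against, had 4 libraries from mice under the same oxygen exposure without a stated supplement. All 8 libraries thus share the hypoxia, and no library from mice in normal air was analysed here. Strain, sex, age, the segment of the intestine and the pooling of animals are not stated in the labels. Nor do they say that every library is from an animal of its own, so the spread behind each p-value is that of libraries, which may be technical.

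Microvilli are finger-like projections that cover the apical face of absorptive enterocytes and enlarge the surface on which nutrients are digested and taken up. Each holds a core of parallel actin filaments, bundled by villin (Vil1), espin (Espn) and plastin 1 (Pls1), with the actin-capping and bundling protein Eps8 at the tip. Ezrin (Ezr), its scaffold NHERF1 (Slc9a3r1) and the motor myosin 1a (Myo1a) tie that core to the membrane, and the protocadherins Cdhr2 and Cdhr5 join the tips of neighbouring microvilli through a complex anchored by the motor myosin 7b (Myo7b).

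The libraries differed in what they held. Total counts were 8662279 to 63943036 in Hypoxia+Nitrate and 5345377 to 21835865 in Hypoxia. Coding genes of the mitochondria accounted for 64.0%, 7.31%, 6.90% and 49.3% of counts in Hypoxia+Nitrate 1 to 4, against 0.423% to 1.06% in Hypoxia, so Hypoxia+Nitrate 1 and 4 stood apart from all other libraries. A background level was read from 1470 autosomal chemosensory receptor genes (odorant, vomeronasal and trace-amine), on the untested assumption that the gut leaves most of them silent. Of these genes 31.2% to 82.3% had a count in Hypoxia+Nitrate libraries and 98.98% to 99.6% in Hypoxia libraries. The background they imply amounted to 2.74% to 23.2% of nuclear protein-coding counts in Hypoxia+Nitrate and 39.1% to 63.7% in Hypoxia. Values below are CPM (read counts scaled to a library of fixed size) after trimmed-mean (TMM) scaling, whose factors were 0.220, 1.65, 2.13 and 0.393 in Hypoxia+Nitrate 1 to 4 and 0.760, 0.633, 3.69 and 1.85 in Hypoxia 1 to 4. CPM values scale inversely with these factors.

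Of the 10 members, 9 were higher in Hypoxia+Nitrate at an adjusted p of 0.05 (edgeR quasi-likelihood test, Benjamini-Hochberg over 35431 genes), 0 were lower, and Eps8 did not pass. Higher calls made up 11.7% of all genes tested. The median log2 fold change over the 10 members, all of which passed the filter on low counts, was 5.16, against −0.58 over all genes tested. For 8 members every Hypoxia+Nitrate CPM lay above every Hypoxia CPM, as for 12% of the genes tested, while Eps8 and Myo7b overlapped. The rise was not even across Hypoxia+Nitrate. In each member, libraries 1 and 4 averaged 9.57 times (Eps8) to 45.2 times (Vil1) the mean of libraries 2 and 3. These ratios and the separation of the groups depend on the TMM scaling. Its factors were 0.220 and 0.393 in libraries 1 and 4, and 1.65 and 2.13 in libraries 2 and 3. As a share of nuclear protein-coding counts, the 10 members together held 1.68%, 0.152%, 0.124% and 1.86% in Hypoxia+Nitrate 1 to 4. In Hypoxia 1 to 4 that share was 0.0645%, 0.130%, 0.0511% and 0.0484%, so Hypoxia 2 lay above Hypoxia+Nitrate 3 and the groups overlapped. Because the tissue was measured in bulk, fewer enterocytes and less RNA per enterocyte cannot be told apart.

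**Figure D1:**
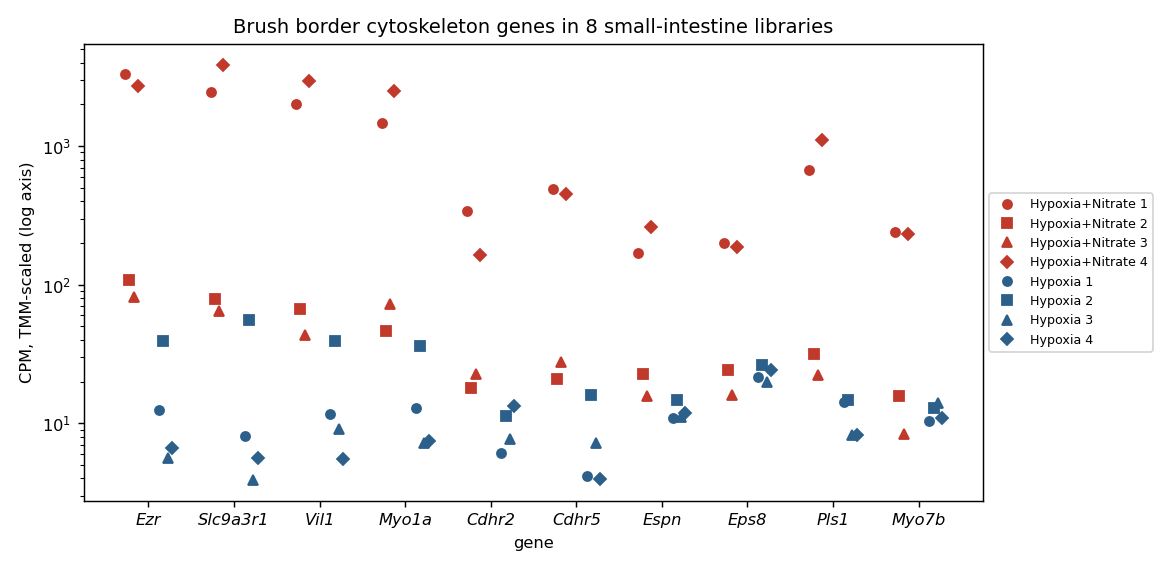
CPM after TMM scaling (log axis) of the 10 members in each library, with Hypoxia+Nitrate in red at the left and Hypoxia in blue at the right of each gene; one marker is one library. Hypoxia+Nitrate 1 and 4 stand above all other libraries for every member, and the remaining red markers come close to the blue ones or overlap them for Eps8 and Myo7b.

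RefSeq promoters (GRCm38.p6, 250 bases before the start) were read for 8 members. Eps8 was not matched, and Myo7b was left out by name. They were searched on both strands for short cores of factors known from enterocytes or low oxygen. The core searched for HNF4 was CAAAGT. For HNF1 the letters GTTAAT were used, for CDX factors TTTAT, for the zinc-finger GATA factors the longer word AGATAA, and for the hypoxia-inducible factors ACGTG. The CArG box of serum response factor, AAAGGTC of nuclear receptors and the CCAAT box were added after the sequences had been read. The 4 promoters that held any of these are shown with the matches in capitals and the strand of the gene read 5′ to 3′. Slc9a3r1 and Vil1 are shown only for letters added after reading. The promoters of Ezr, Myo1a, Espn and Pls1, genes also called higher, held no match. For Myo1a the sequence after the window did not match the start of an annotated transcript. Its window ended at 127705255, past the annotated gene start of 127705170, so it may not be the promoter in use. The matches shown do not overlap one another.
Slc9a3r1, chr11:115163091-115163340, plus strand: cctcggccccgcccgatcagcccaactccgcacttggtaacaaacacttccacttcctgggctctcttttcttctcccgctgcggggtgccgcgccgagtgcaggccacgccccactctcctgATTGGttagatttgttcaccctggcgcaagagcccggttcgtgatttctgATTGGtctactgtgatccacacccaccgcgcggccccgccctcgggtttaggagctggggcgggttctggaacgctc
Vil1, chr1:74409134-74409383, plus strand: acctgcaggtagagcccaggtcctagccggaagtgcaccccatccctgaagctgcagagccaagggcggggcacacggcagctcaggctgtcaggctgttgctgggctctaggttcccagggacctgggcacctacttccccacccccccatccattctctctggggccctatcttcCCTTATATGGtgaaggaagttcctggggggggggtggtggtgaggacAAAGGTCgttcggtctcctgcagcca
Cdhr2, chr13:54701213-54701462, plus strand: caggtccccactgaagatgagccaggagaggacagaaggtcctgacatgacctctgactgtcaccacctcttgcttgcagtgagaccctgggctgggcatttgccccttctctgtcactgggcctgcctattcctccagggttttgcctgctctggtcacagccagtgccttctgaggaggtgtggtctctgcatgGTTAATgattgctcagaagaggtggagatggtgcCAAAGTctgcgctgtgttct
Cdhr5, chr7:141276787-141277036, minus strand: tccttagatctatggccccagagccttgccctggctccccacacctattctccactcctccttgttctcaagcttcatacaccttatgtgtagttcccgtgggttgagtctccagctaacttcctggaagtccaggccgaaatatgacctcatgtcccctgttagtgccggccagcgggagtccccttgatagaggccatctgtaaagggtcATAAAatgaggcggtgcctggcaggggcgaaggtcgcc

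The capitals mark a pair of CCAAT boxes on the opposite strand in Slc9a3r1, a CArG box and AAAGGTC in Vil1, the HNF1 and HNF4 cores in Cdhr2 and a CDX core on the opposite strand in Cdhr5. Among all 32851 promoters of the same length, the share with a match was 12.6% for CAAAGT, 6.43% for GTTAAT, 37.3% for TTTAT, 9.99% for AGATAA, 16.6% for ACGTG, 1.47% for the CArG box, 3.32% for AAAGGTC and 33.9% for CCAAT. Each of the matched motifs occurred in 1 of the 8 member promoters, and AGATAA and ACGTG in 0.

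Among the membrane linkers, Ezr (ENSMUSG00000052397, GRCm38 chromosome 17, 6738041 to 6782784, minus strand) encodes the protein that binds membrane proteins at its head and actin at its tail. Its CPM was 3323, 108, 81.5 and 2717 in Hypoxia+Nitrate 1 to 4, and 12.4, 39.1, 5.64 and 6.69 in Hypoxia 1 to 4. The groups did not overlap, and the lowest Hypoxia+Nitrate library stood 2.09 times above the highest Hypoxia library, the widest such gap of the 10 members. The log2 fold change of Ezr was 6.61 (SE 1.55, edgeR adjusted p = 0.0145), at rank 21 among all genes tested. At its edge 4 bp of exon overlap Sytl3, which lies on the opposite strand.

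Slc9a3r1 (ENSMUSG00000020733, chromosome 11, 115163341 to 115181181, plus strand) encodes the PDZ scaffold NHERF1, which binds active ezrin and holds transporters at the apical membrane. Its CPM was 2467, 78.3, 64.3 and 3863 in Hypoxia+Nitrate 1 to 4, and 8.08, 55.8, 3.90 and 5.60 in Hypoxia 1 to 4. Hypoxia 2 lay far above the other Hypoxia libraries and close under Hypoxia+Nitrate 3, the lowest library of its group, at a ratio of 1.15. The log2 fold change of Slc9a3r1 was 6.46 (SE 1.72, edgeR adjusted p = 0.0223), and 8.13 without Hypoxia 2.

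Myo1a (ENSMUSG00000025401, chromosome 10, 127705170 to 127720940, plus strand) encodes the class I motor that bridges the side of the bundle and the membrane. Its CPM was 1463, 46.6, 73.0 and 2498 in Hypoxia+Nitrate 1 to 4, and 12.8, 36.1, 7.22 and 7.47 in Hypoxia 1 to 4. The groups did not overlap, and the log2 fold change of Myo1a was 6.004 (SE 1.45, edgeR adjusted p = 0.0160).

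Of the actin bundlers, Vil1 (ENSMUSG00000026175, chromosome 1, 74409376 to 74435559, plus strand) encodes villin, which bundles actin and severs it when calcium is high. Its CPM was 2009, 66.9, 43.1 and 2962 in Hypoxia+Nitrate 1 to 4, and 11.6, 39.1, 9.12 and 5.54 in Hypoxia 1 to 4. Hypoxia+Nitrate 3 exceeded Hypoxia 2 by a factor of 1.10 only. The log2 fold change of Vil1 was 6.28 (SE 1.57, edgeR adjusted p = 0.0176). Its exons overlap those of Usp37, on the opposite strand, by 49 bp.

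Pls1 (ENSMUSG00000049493, chromosome 9, 95752642 to 95845311, minus strand) encodes plastin 1, also called fimbrin, which packs the filaments and ties them to the terminal web. Its CPM was 668, 31.7, 22.2 and 1115 in Hypoxia+Nitrate 1 to 4, and 14.2, 14.8, 8.22 and 8.19 in Hypoxia 1 to 4. The groups did not overlap, and the log2 fold change of Pls1 was 5.34 (SE 1.27, edgeR adjusted p = 0.0152).

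Espn (ENSMUSG00000028943, chromosome 4, 152120331 to 152152371, minus strand) encodes espin, a bundler that calcium does not inhibit and that is also needed in the stereocilia of the inner ear. Its CPM was 170, 22.7, 15.8 and 262 in Hypoxia+Nitrate 1 to 4, and 10.9, 14.7, 11.2 and 11.9 in Hypoxia 1 to 4. Hypoxia+Nitrate 3 was 1.07 times Hypoxia 2, so the groups barely separated, and the log2 fold change of Espn was 3.27 (SE 0.865, edgeR adjusted p = 0.0218).

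Eps8 (ENSMUSG00000015766, chromosome 6, 137477245 to 137654876, minus strand) encodes the tip protein that caps and bundles filaments and sets microvillar length. Its CPM was 200, 24.2, 16.1 and 186 in Hypoxia+Nitrate 1 to 4, and 21.4, 26.3, 19.7 and 24.3 in Hypoxia 1 to 4. Hypoxia+Nitrate 1 and 4 were high, whereas Hypoxia+Nitrate 2 and 3 lay within or below the Hypoxia values. The log2 fold change of Eps8 was 2.22 (SE 0.79, edgeR adjusted p = 0.0621) and did not pass.

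The intermicrovillar adhesion genes showed intermediate changes. Cdhr2 (ENSMUSG00000034918, chromosome 13, 54701461 to 54736662, plus strand) encodes a protocadherin that pairs with Cdhr5 between tips. Its CPM was 339, 18.02, 22.5 and 164 in Hypoxia+Nitrate 1 to 4, and 6.14, 11.3, 7.75 and 13.4 in Hypoxia 1 to 4. The groups did not overlap, and the log2 fold change of Cdhr2 was 3.82 (SE 0.942, edgeR adjusted p = 0.0170).

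Cdhr5 (ENSMUSG00000025497, chromosome 7, 141269083 to 141276786, minus strand) encodes the mucin-like partner of Cdhr2. Its CPM was 488, 20.9, 27.7 and 448 in Hypoxia+Nitrate 1 to 4, and 4.14, 15.9, 7.27 and 3.97 in Hypoxia 1 to 4. The groups did not overlap, and the log2 fold change of Cdhr5 was 4.97 (SE 1.16, edgeR adjusted p = 0.0140), the lowest p of the 10.

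Myo7b (ENSMUSG00000024388, chromosome 18, 31959234 to 32036961, minus strand) encodes the motor that carries the adhesion complex to the tips. Its CPM was 241, 15.9, 8.44 and 233 in Hypoxia+Nitrate 1 to 4, and 10.5, 12.8, 14.0 and 10.8 in Hypoxia 1 to 4. Hypoxia+Nitrate 3 fell below all 4 Hypoxia libraries, so the groups overlapped, although the log2 fold change of Myo7b, 3.37 (SE 0.992, edgeR adjusted p = 0.0320), passed.

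The calls depended on libraries in both groups. Without Hypoxia+Nitrate 1 and 4 the remaining libraries gave 2 called members, Ezr at a log2 fold change of 2.62 (edgeR adjusted p = 0.0304) and Pls1 at 1.32 (edgeR adjusted p = 0.0328), where 10.1% of all genes tested were called higher. Without Hypoxia 1, Hypoxia 3 or Hypoxia 4 no member was called in edgeR, with the lowest adjusted p at 0.0618, 0.0507 and 0.0506. The median log2 fold change of the members was 5.11, 4.93 and 5.15 in these fits, close to the 5.16 of all libraries, and the median SE was 1.47, 1.41 and 1.51, against 1.22 with all libraries. All 10 had an unadjusted p under 0.05 in each of these fits, and 1.95%, 4.16% and 4.23% of all genes tested were called higher there.

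The Hypoxia values were next set against the background read from the receptor genes, multiplied by the exonic length of each member that no other gene shares. Over the 4 libraries together, counts of the members were 18.4 times (Eps8) to 1878 times (Slc9a3r1) the expected background in Hypoxia+Nitrate, and 1.38 times (Espn) to 8.07 times (Slc9a3r1) in Hypoxia. Hypoxia 2 stood apart within its group. Its ratios ran from 2.03 (Espn) to 33.2 (Slc9a3r1), with Ezr at 13.6, Vil1 at 12.8 and Myo1a at 11.1. In Hypoxia 1, 3 and 4 all ratios lay between 1.09 and 3.47.

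A stricter reading set each member against the 95th percentile of the receptor genes in the same library, per kb. In Hypoxia+Nitrate 1 to 4, 10, 8, 7 and 10 members exceeded it, and in Hypoxia 1 to 4, 5, 7, 1 and 2 members did. Espn, Eps8 and Myo7b exceeded it in 3, 2 and 2 Hypoxia+Nitrate libraries and in 0 Hypoxia libraries, so expression of these 3 genes in Hypoxia was not detectable above the spread of the receptor genes. Expected background made up 0.0809% to 8.68% of the summed member counts in Hypoxia+Nitrate libraries, and 54.3%, 16.6%, 58.6% and 53.0% in Hypoxia 1 to 4.

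**Figure D2:**
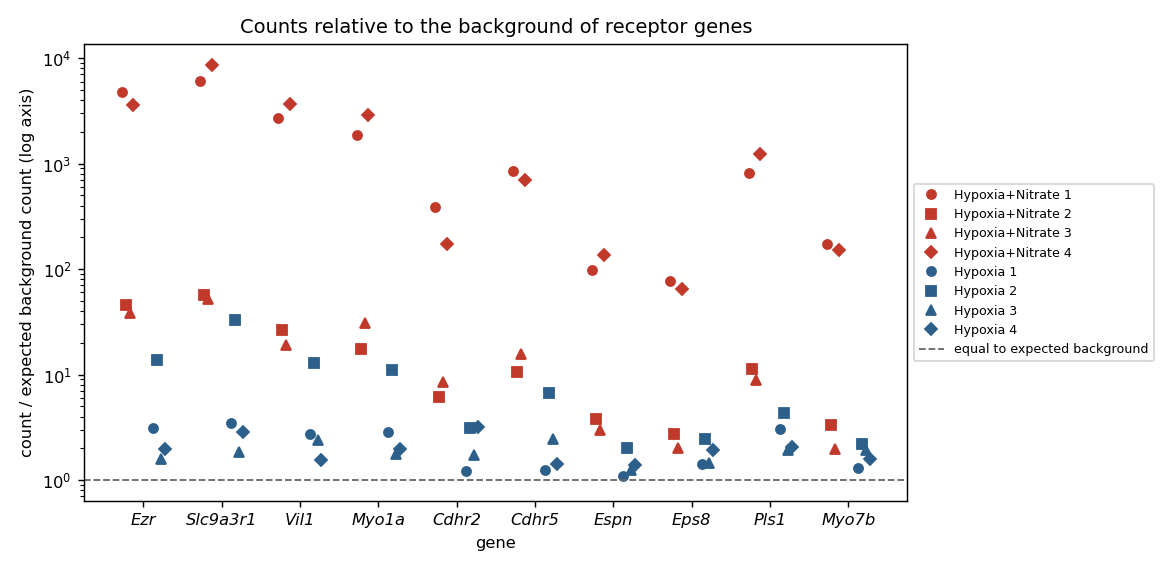
Count of each member divided by the count expected from the receptor-gene background (log axis) in each library, with Hypoxia+Nitrate in red at the left and Hypoxia in blue at the right; the dashed line marks equality. All 80 values lie above the line, and in Hypoxia 1, 3 and 4 none exceeds 3.47.

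When the expected background was subtracted from all nuclear protein-coding genes, the log2 fold changes of the members stayed above 0 in limma-voom, from 0.88 (Eps8, SE 1.02) to 4.86 (Ezr, SE 1.45). None passed, with adjusted p-values of 0.0544 (Ezr) to 0.571 (Eps8), 4 had an unadjusted p under 0.05, and 4.24% of 15000 genes were called higher. Without subtraction the same tool on the same class of genes called 8 members higher, where 14.1% of 20463 genes were called higher. As a share of nuclear protein-coding counts after subtraction, the 10 members together held 1.72%, 0.174%, 0.134% and 1.91% in Hypoxia+Nitrate 1 to 4, and 0.0716%, 0.172%, 0.0429% and 0.0405% in Hypoxia 1 to 4. Hypoxia 2 thus lay above Hypoxia+Nitrate 3 and just under Hypoxia+Nitrate 2.

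Levels were compared between members per kb of exon, taken as the union of all annotated transcripts, which understates genes with many long isoforms such as Eps8 (12355 bp). In Hypoxia+Nitrate the order was nearly the same in every library. Slc9a3r1 was highest in all 4, at 1281, 40.7, 33.4 and 2007 CPM per kb, Ezr, Vil1 and Myo1a took places 2 to 4, Pls1 and Cdhr5 places 5 and 6, and Cdhr2 was always in place 7. The last 3 places were always filled by Espn, Eps8 and Myo7b. The highest member exceeded the lowest 79.3, 20.8, 26.2 and 133 times in Hypoxia+Nitrate 1 to 4.

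In Hypoxia the levels were flatter. The highest member exceeded the lowest 3.17, 16.3, 1.97 and 2.26 times in Hypoxia 1 to 4, and the highest was Slc9a3r1 in Hypoxia 1 and 2, Cdhr5 in Hypoxia 3 and Cdhr2 in Hypoxia 4. Hypoxia 2, the library with the lowest background of its group, kept Slc9a3r1, Ezr, Vil1 and Myo1a in the first 4 places, in the order of Hypoxia+Nitrate 1. The mean level per kb of Slc9a3r1 was 841 ± 974 CPM in Hypoxia+Nitrate and 9.53 ± 13.0 CPM in Hypoxia, and that of Ezr was 473 ± 519 CPM in Hypoxia+Nitrate and 4.85 ± 4.77 CPM in Hypoxia (SD, n = 4 each). These SDs are spreads between libraries that both genes share, and within a library Ezr was below Slc9a3r1 in all 8. Among Ezr, Vil1 and Myo1a, between Pls1 and Cdhr5, and among Espn, Eps8 and Myo7b, the order changed between Hypoxia+Nitrate libraries.

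**Figure D3:**
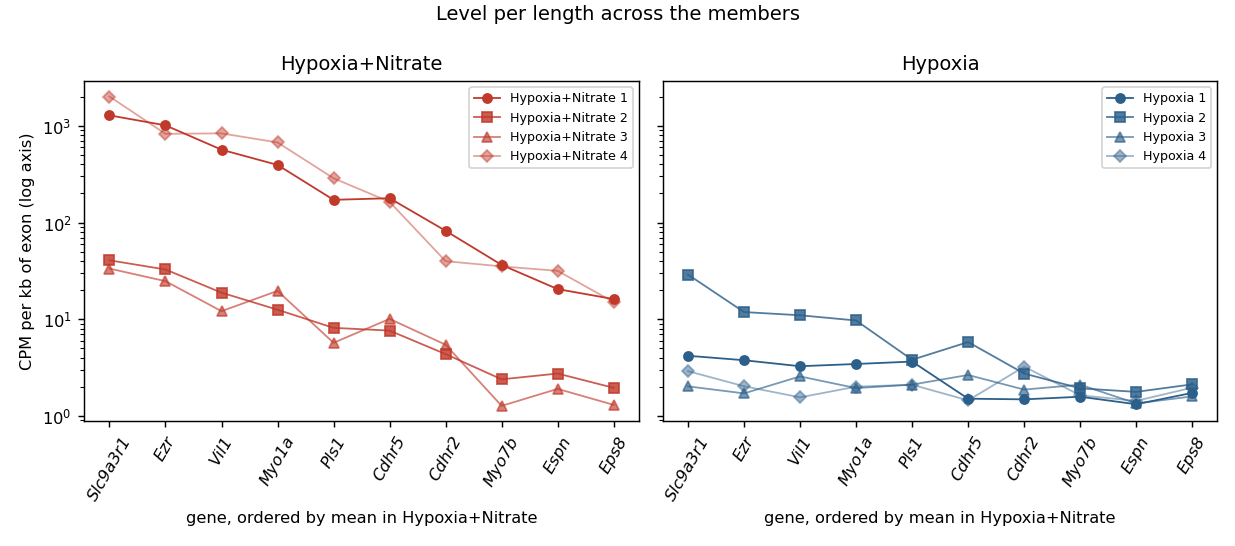
CPM per kb of exon (log axis) of the 10 members, ordered by their mean in Hypoxia+Nitrate, with one line per library (lines guide the eye only) and Hypoxia+Nitrate at the left. Lines fall steeply in all 4 Hypoxia+Nitrate libraries and are near flat in Hypoxia 1, 3 and 4, while Hypoxia 2 falls from 29.0 to 1.78.

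Fold changes between libraries also depend on how they are scaled, whereas a ratio within a library does not. Each member was therefore set against the geometric mean of 10 genes of epithelium of any type (Epcam, Cdh1, Krt8, Krt18, Krt19, Cldn7, Cldn3, Elf3, Tspan8 and Lgals4) in the same library, on the log2 scale. Those 10 genes themselves all rose, with a median log2 fold change of 4.53. The log2 ratio of Ezr was 3.12, 1.45, 1.22 and 2.85 in Hypoxia+Nitrate 1 to 4, and 0.69, 1.17, 0.34 and 0.32 in Hypoxia 1 to 4, without overlap. Ezr was the only member whose ratio was higher in that sense, as for 0.0593% of genes tested.

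Eps8 went the other way. Its log2 ratio to the epithelial genes was −0.94, −0.71, −1.12 and −1.02 in Hypoxia+Nitrate 1 to 4, and 1.48, 0.60, 2.14 and 2.18 in Hypoxia 1 to 4. Espn and Myo7b were also lower without overlap, which held for 71.4% of genes tested, and the other 6 members overlapped. Summed over the Hypoxia libraries, counts of Eps8, Espn and Myo7b were 1.74, 1.38 and 1.73 times the expected background. Their Hypoxia ratios thus rest on counts near that level, within the spread of the receptor genes. After background was subtracted from both sides of the ratio, Eps8 alone was lower without overlap, at −2.01 to −0.95 in Hypoxia+Nitrate and 0.16 to 1.95 in Hypoxia. That pattern held for 50.9% of genes, and the remaining 9 members overlapped, with 0 higher against 0.186% of genes. Over the 10 members, the median difference between group means of the log2 ratio was −0.08 as deposited and 0.06 after subtraction.

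Scaling every library to the summed counts of these epithelial genes left the edgeR fit with 0 members higher and 3 lower, Espn at a log2 fold change of −2.35 (adjusted p = 0.0454), Eps8 at −3.29 (adjusted p = 0.0203) and Myo7b at −2.61 (adjusted p = 0.0369). Under that scaling 0.00564% of all genes were called higher and 67% lower, and the median of all genes was −4.31. The Hypoxia counts of the 3 lower members stood near the expected background, as given above. Ezr, Slc9a3r1, Vil1 and Myo1a kept positive values of 1.17, 1.19, 0.61 and 0.39 that did not pass. With library size alone, 5 members were called higher, Ezr, Slc9a3r1, Vil1, Myo1a and Pls1, at log2 fold changes of 3.39 (Pls1) to 5.13 (Slc9a3r1), where 0.686% of all genes were called higher and the median of all genes was −1.07. Higher calls made up 48.1% of all calls with TMM, 35.0% with relative log expression, 34.4% with upper-quartile scaling and 13.5% with library size alone.

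**Figure D4:**
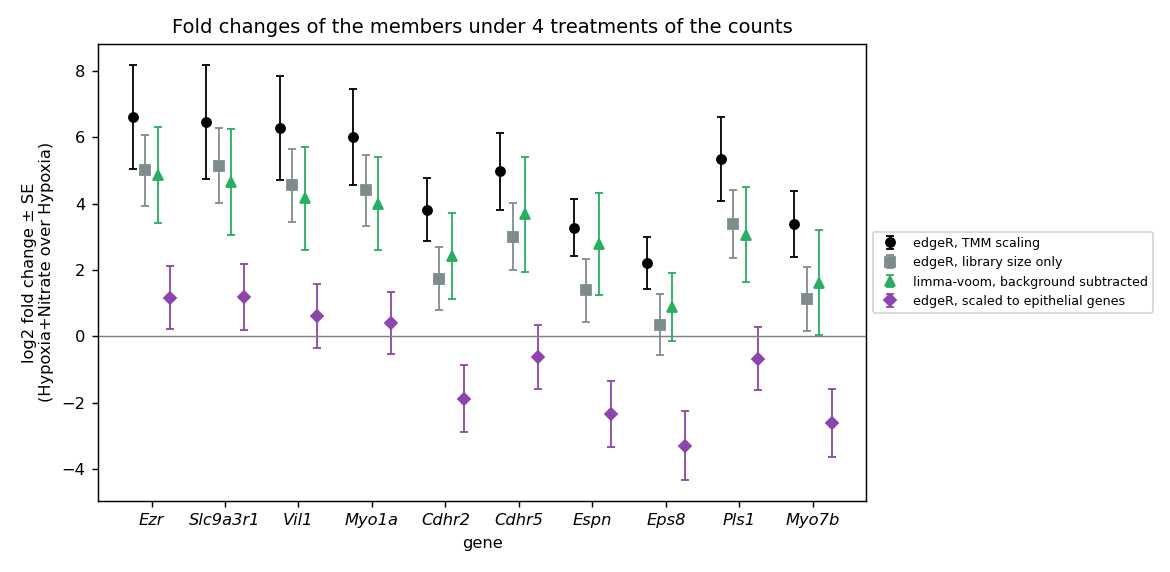
Log2 fold change of Hypoxia+Nitrate over Hypoxia with its standard error for each member under TMM scaling, library size alone, subtraction of expected background, and scaling to epithelial genes. Values under the first 3 treatments lie above 0 for all 10 members, and those scaled to epithelial genes run from −3.29 (Eps8) to 1.19 (Slc9a3r1).

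Markers of some cell types were also called higher in Hypoxia+Nitrate. All 11 markers of absorptive enterocytes were called higher, and their summed level was 1394 to 46335 CPM in Hypoxia+Nitrate and 58.5 to 843 CPM in Hypoxia. The sum over the 10 epithelial genes was 650 to 8857 CPM in Hypoxia+Nitrate and 52.0 to 291 CPM in Hypoxia. Smooth muscle markers were called higher for 6 of 6, with sums of 1342 to 2946 CPM in Hypoxia+Nitrate and 63.1 to 426 CPM in Hypoxia, and Paneth cell markers for 6 of 6, with sums of 297 to 1074 CPM in Hypoxia+Nitrate and 20.5 to 101 CPM in Hypoxia. Goblet cell markers were higher for 4 of 7, with sums of 255 to 1637 CPM in Hypoxia+Nitrate and 43.2 to 174 CPM in Hypoxia. Unlike the members, each smooth muscle marker was highest in Hypoxia+Nitrate 2. Acta2 stood at 482, 1118, 540 and 502 CPM in Hypoxia+Nitrate 1 to 4. Of the Paneth cell markers, Defa17 and Defa24 were highest in Hypoxia+Nitrate 3, Mmp7 in Hypoxia+Nitrate 4 and the rest in Hypoxia+Nitrate 1.

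Tuft cells, which carry long microvilli of their own, had 0 of 11 markers called, with sums of 32.8 to 66.4 CPM in Hypoxia+Nitrate and 57.0 to 65.7 CPM in Hypoxia. Stem and crypt markers had 0 of 6 called (41.9 to 88.5 CPM in Hypoxia+Nitrate and 45.7 to 59.2 CPM in Hypoxia). Summed counts in Hypoxia were 1.46 (tuft) and 1.23 (stem and crypt) times the expected background, against 2.64 and 3.74 times in Hypoxia+Nitrate. The Hypoxia sums of these 2 lists are thus mostly expected background and do not show equal expression in the groups. Markers of fibroblasts were higher for 1 of 6, of leukocytes for 2 of 7 with 1 lower, of endothelium for 0 of 4 with 1 lower, of enteric neurons and glia for 1 of 6, and of enteroendocrine cells for 1 of 6. Among all genes tested 11.7% were called higher and 12.7% lower. Counts of 0 to 2 in lists this short are not read as results about these cells. Exocrine pancreas had 0 of 6 called and islets 0 of 5 tested, although the protocol text speaks of islets. Among the lists with 0 edgeR calls, an unadjusted p under 0.05 was found for 2 tuft, 1 stem, 1 pancreas and 1 islet gene, DESeq2 called 2, 1, 1 and 1 genes of these lists, and limma-voom called 2, 0, 2 and 1. Hair cell genes, which share espin with the brush border, were higher for 1 of 8, Atoh1, and lower for 2, Cdh23 and Myo15. Counts of these lower genes in Hypoxia were 1.41 and 1.88 times the expected background, so their calls rest on Hypoxia counts near that level. No marker was at 0 in all libraries of a group. The part of these cell types, of the background and of the mitochondrial share in the fold changes of the members was not tested.

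Neighbouring genes of the same structure were read from the fit as well. Of 20 further genes of the actin core and its membrane links, 14 were higher and 0 lower, with a median log2 fold change of 3.12. The lowest p among them belonged to Capzb, an actin-capping subunit, at 3.82 (SE 0.816), to Eps8l2, an Eps8 relative, at 3.60 (SE 0.799), and to Actg1, cytoplasmic gamma actin, at 4.63 (SE 1.03), with edgeR adjusted p-values of 0.0106, 0.0118 and 0.0121. The 6 that did not pass were Myo1e, Myo6, Twf2, Slc9a3r2, Slk and Stk26, at −0.42 (Stk26) to 2.21 (Myo1e).

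Among 10 terminal web genes, which form the filament mat beneath the microvilli, 8 were higher and 0 lower, with a median log2 fold change of 2.13. Myl6, a myosin light chain, was at 3.34, Myh14, a nonmuscle myosin heavy chain, at 3.81 and Myh9, another such heavy chain, at 1.86 (edgeR adjusted p = 0.0102, 0.0171 and 0.0179). Of 8 genes of apical trafficking 6 were higher and 0 lower, with a median of 2.62, led by Plin3, a lipid droplet and trafficking protein, at 4.21, Stxbp2, a syntaxin partner, at 3.26 and Mal2, a transcytosis protein, at 3.11 (edgeR adjusted p = 0.0113, 0.0119 and 0.0124). Lower calls made up 12.7% of all genes tested.

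Of the 5 genes listed as adhesion complex partners of Cdhr2, Cdhr5 and Myo7b, all but the inner ear gene Ush1g had log2 fold changes above 0. Calml4, a myosin 7b light chain, was higher at a log2 fold change of 3.10 (edgeR adjusted p = 0.0129), and Ush1c, the PDZ scaffold harmonin, at 4.18 (adjusted p = 0.0193). Anks4b, the ankyrin adaptor, at 3.65 (adjusted p = 0.0540) and Myo5b, an apical transport motor, at 2.68 (adjusted p = 0.0621) did not pass. Ush1g, the inner ear counterpart of Anks4b, was lower at −4.40 (adjusted p = 0.0418), with 0.305 CPM on average in Hypoxia+Nitrate and 6.80 CPM in Hypoxia, where its counts were 1.96 times the expected background.

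Paralogs of the members, most of them known from other cell types, showed no such rise as a list. Of 14, 2 were higher, Msn at a log2 fold change of 2.34 (edgeR adjusted p = 0.00923) and Myo1c at 1.77 (adjusted p = 0.0279), and 4 were lower, Cdhr1 at −4.27, Cdhr4 at −5.54, Espnl at −3.67 and Eps8l1 at −1.82 (adjusted p = 0.0290, 0.0160, 0.0484 and 0.0305). Counts of these 4 genes in Hypoxia were 1.35, 2.41, 1.75 and 0.981 times the expected background, so their lower calls rest on Hypoxia counts near that level. The other 8 did not pass, among them Rdx (0.87), Vill (−2.10), Avil (−0.90), Pls3 (1.10), Lcp1 (−0.17), Myo7a (−0.26) and Cdhr3 (−1.12). The median of the list was −0.58, as over all genes.

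**Figure D5:**
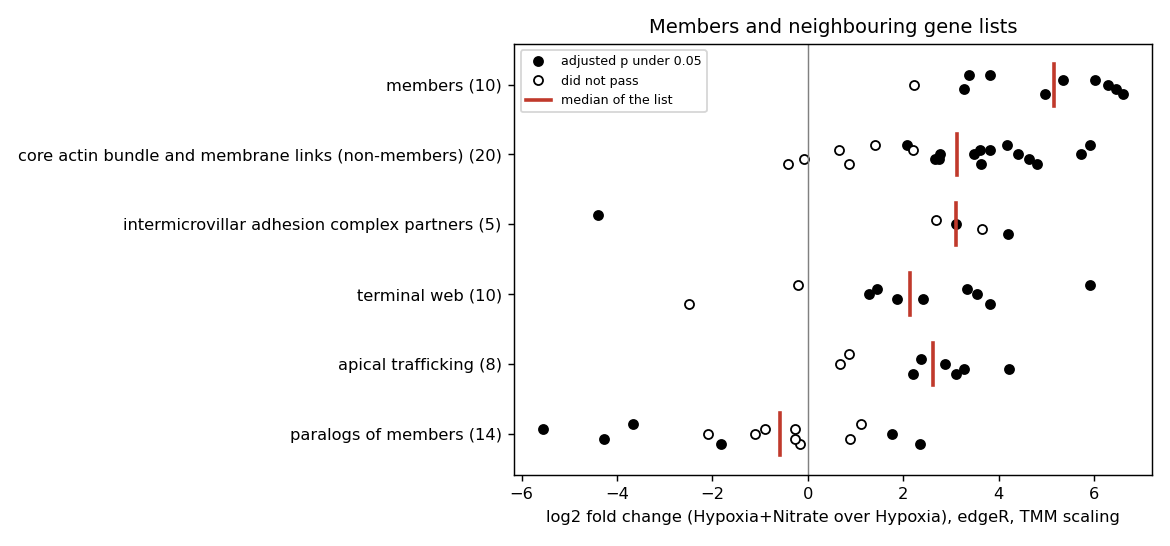
Log2 fold change of Hypoxia+Nitrate over Hypoxia for the members and the 5 neighbouring lists, one point per gene, filled where the edgeR adjusted p was under 0.05, with the list median as a red bar. Medians run from 5.16 for the members through 3.12, 3.10, 2.13 and 2.62 to −0.58 for the paralogs.

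Within a library, the ratio of a member to its paralog per kb does not depend on scaling. Ezr exceeded Msn, the ezrin relative moesin of leukocytes and endothelium, 201, 5.91, 7.46 and 100 times in Hypoxia+Nitrate 1 to 4, and 3.47, 6.71, 2.29 and 2.67 times in Hypoxia 1 to 4. Pls1 exceeded Lcp1, the leukocyte plastin, 410, 6.23, 22.2 and 129 times in Hypoxia+Nitrate 1 to 4, and 3.21, 3.37, 1.57 and 1.87 times in Hypoxia 1 to 4. Lcp1 in Hypoxia stood at 1.20 times the expected background. Pls1 over Pls3, the plastin of many solid tissues, was 104, 4.28, 1.75 and 247 in Hypoxia+Nitrate 1 to 4, and 6.63, 4.12, 2.30 and 1.61 in Hypoxia 1 to 4. The groups overlapped for Pls1 over Pls3 and for Ezr over Msn, and did not for Pls1 over Lcp1.

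Myo7b and Myo7a, its inner ear and retina relative, stood at ratios of 27.1, 2.36, 1.01 and 16.0 in Hypoxia+Nitrate 1 to 4, and 1.06, 1.14, 1.05 and 0.910 in Hypoxia 1 to 4. Summed over the Hypoxia libraries, counts were 1.73 times the expected background for Myo7b and 1.67 times for Myo7a, and 2 genes near a background that is even per kb have a ratio near 1, so the Hypoxia ratios do not show equal expression. Eps8 was below Eps8l2 in every Hypoxia+Nitrate library, at ratios of 0.270, 0.155, 0.058 and 0.200, and at 1.11, 0.358, 0.314 and 1.36 in Hypoxia 1 to 4. Between partners, Ezr per kb was 0.412 to 0.803 times Slc9a3r1 in Hypoxia+Nitrate and 0.410 to 0.899 times in Hypoxia, ranges that overlapped.

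Profiles over the 8 libraries were compared as log2 CPM centred on each gene. The nearest pair of members was Espn and Myo7b, with a root mean square difference of 0.411, followed by Ezr with Slc9a3r1 (0.422) and Vil1 with Myo1a (0.422), and the farthest pair was Slc9a3r1 and Eps8 (2.39). Among 14949 other protein-coding genes whose log2 CPM averaged 1 or more, the 5 profiles nearest to the mean of the members were Gsto1, a glutathione transferase (0.198), Jup, plakoglobin of cell junctions (0.200), Muc3, a membrane mucin (0.212), Ephx2, an epoxide hydrolase (0.246), and Myo1d, a class I myosin (0.254). Pls1 and Cdhr5 were the members closest to that mean, at 0.366 and 0.380, and Eps8 was the farthest at 1.27.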

How the data were processed

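Raw counts of reads per gene were deposited by the authors, in 1 joint table and 1 table per library, which agreed in every gene for all 8 libraries. HISAT, featureCounts 1.5.0-p3 and DESeq 1.8.3 with build GRCm38 are named per the submitters' processing notes, and per the labels' protocols RNA was isolated with TRIzol and libraries came from a stranded kit. How multi-mapped reads were handled, which strand setting and gene annotation were used, and the version of HISAT were not given in the sources used here. Groups and replicate numbers follow the sample titles.

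Counts were filtered with filterByExpr (minimum count 10, minimum total 15), TMM-scaled and tested over all genes with edgeR 4.0.16 (quasi-likelihood test, Benjamini-Hochberg, R 4.3.3). Standard errors were derived from the fold change and its F statistic. Alternatives used limma 3.58.1 and DESeq2 1.42.0, and all 3 tools were run on simulated counts. Positions, exonic lengths and overlaps come from GENCODE M21, matched for 55240 IDs (181 unmatched). Expected background is the pooled receptor-gene density per kb times the unique exonic length (factor 0.5 on X and Y). For the ratio to epithelial genes after subtraction, values under 1 count were set to 1. Genes named from the pathway lists were the 3 with the lowest p per list and the paralogs, of which 1 is not reported here, and genes that did not pass were named after their values were seen. The members and lists were chosen with earlier results of these data known.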

Additional observations from a re-analysis of the deposited data

Results flagged for a closer look

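In Hypoxia, Slc9a3r1 stood at 55.8 CPM in Hypoxia 2, against 3.90 to 8.08 CPM in the other Hypoxia libraries, a gap that took more of the range of the group than Dixon's 95% critical value for 4 samples allows. Hypoxia 2 also had the lowest background share of its group, 39.1%. It was 1 of 20 groups of 4 values examined, and chance flags about 1 group in 20.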

How the results depend on the processing

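The 9 member calls, 8653 calls over all genes and 37 over the pathway lists stayed within 1.5 times under relative log expression, upper-quartile scaling, a CPM minimum of 1, nuclear protein-coding genes only and, for members and lists, no filter, DESeq2 and limma-voom. Calls over all genes were 16708 without a filter, 14689 in DESeq2 and 15818 in limma-voom. Library size alone gave 1800, 5 members and 6 list genes. Scaling to epithelial genes gave 23735, 3 and 28, with members at −3.29 (Eps8), −2.61 (Myo7b), −2.35 (Espn), −1.88 (Cdhr2), −0.67 (Pls1) and −0.64 (Cdhr5). The background share as a covariate gave 0, 0 and 0 in edgeR (2648 genes and 0 members at an unadjusted p under 0.05), at −0.10 (Ezr), −1.61 (Slc9a3r1), −1.13 (Vil1), −0.89 (Myo1a), −1.80 (Cdhr2), −1.70 (Cdhr5), −1.32 (Espn), −1.99 (Eps8), −0.42 (Pls1) and −2.23 (Myo7b), with a median SE of 2.63. The background share did not overlap between the groups, so the covariate fit cannot tell it apart from treatment. Background subtraction gave 2006, 0 and 8. Leaving out 1 library each gave 1932 to 22454 genes, 0 to 10 members and 2 to 43 list genes. Without Hypoxia+Nitrate 1 and 4 there were 11637, 2 and 24 calls, with Eps8 at −0.11, and without Hypoxia 1 and 2 there were 4227, 0 and 2 in edgeR (8 members at an unadjusted p under 0.05). The cause of these changes was not tested.

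The labels do not say whether shared replicate numbers pair the libraries. Correlations of same-numbered deviations from the group means were 0.0506, −0.182, 0.184 and −0.0503. They cannot exclude a pairing, as other differences between libraries, such as the mitochondrial and background shares, may enter the same deviations. With the replicate block edgeR called 4791 genes, 0 members (8 at an unadjusted p under 0.05, adjusted p 0.0588 to 0.210) and 16 list genes. limma-voom on nuclear protein-coding genes without subtraction, added after seeing the data, called 9489, 8 and 33. The lowest count of a member in any library was 62.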
